A study of Mus musculus with 2 samples.

Results

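Cytosolic ribosomal protein genes encode the protein part of the ribosome, and they were described here in mouse embryonic stem cells that lack Ago1. Members were the protein-coding genes whose symbol begins with Rpl or Rps and a digit, together with Rplp0, Rplp1, Rplp2 and Rpsa, and without the Rps6k kinases and Rps6kl1. The rule took 92 of the 55421 genes in the table. Of these, 77 are canonical ribosomal protein genes, 46 of the large subunit and 31 of the small. The other 15 are paralogs, retrocopies annotated as protein-coding, and Rps19bp1, which encodes a protein that binds Rps19 and is no ribosomal protein.

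The series holds 1 group of 2 libraries of polyadenylated RNA, KO1 and KO2, both from E14 embryonic stem cells of 129/Ola background with an Ago1 knockout. E14 is an established line derived from a blastocyst, and the cells were grown in serum and leukaemia inhibitory factor on gelatin-coated plates. Ago1 encodes an Argonaute protein, which binds microRNAs. Whether KO1 and KO2 come from different clones or different cultures is not stated in the labels. Technical and biological spread thus cannot be told apart here. A control group was not analysed here, so all values describe knockout cells.

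Each ribosome carries a large and a small subunit, in which ribosomal proteins are assembled on ribosomal RNA in the nucleolus. The small subunit reads the mRNA, and the large subunit joins amino acids and threads the new chain through its exit tunnel. Most ribosomal protein mRNAs begin with a C and a run of pyrimidines, the terminal oligopyrimidine (TOP) motif, through which their translation follows growth signals. Rapidly dividing cells such as embryonic stem cells make many ribosomes, and mammalian genomes hold many retrocopies of these genes.

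The targeted gene, Ago1, was read 1497 times in KO1 and 452 times in KO2, or at 26.4 and 8.27 counts per 1000000 (CPM). The library ratio was 3.18-fold lower in KO2, a log2 ratio of -1.67, and of -1.84 to -1.69 with the 3 GC corrections described below. By the 2-fold rule given below Ago1 was lower in KO2, as were 0.0768% of all tested genes. The labels do not say which part of the gene is disrupted, and without a control library these counts do not check the knockout. KO1 held 57048330 counts and KO2 54408708, so a count of 0 allows up to 0.0528 and 0.0549 CPM. Of 7 marker genes of embryonic stem cells 7 reached a CPM of 1 in each library, which is called detected here, and of 7 fibroblast markers 1 was, with Lum and Postn at 0. The common biological coefficient of variation between the libraries was 0.198.

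All 77 canonical genes were detected in both libraries. With 11 of the 15 other members, 88 of 92 members passed this level, whereas 55.5% of all protein-coding genes in the table did. Members held 5.70% of all counts in KO1 and 6.48% in KO2, a mean of 6.09% ± 0.549 (SD, n = 2). In bulk RNA, fewer cells of a kind and less RNA per cell cannot be told apart. Large-subunit genes held 3.26% and 3.72%, small-subunit genes 2.33% and 2.65%, and the 15 other members 0.110% and 0.104%. Of the 100 most abundant genes by CPM, 22 were canonical members, and of the first 200, 41.

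Levels were compared between genes per length, as CPM per kb of merged exonic length. On this scale 45 of the 100 highest protein-coding genes were canonical members. Their median was 374 CPM per kb, with quartiles of 238 and 535, beside a median of 5.85 over the 12144 detected protein-coding genes. Of the 77, 60 lay between 0.5 and 2 times their own median. The SD of log2 CPM per kb over the 77 genes was 1.44.

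The highest by mean was Rpl4, whose protein lines the exit tunnel, on chromosome 9 (chr9:64173375-64178666, + strand, GRCm38). It was at 1570 CPM per kb in KO1 and 1515 in KO2, a mean of 1543 ± 39.4 (SD, n = 2). Rps4x, the X-linked form of a small-subunit protein, followed at 1226 and 1065 CPM per kb. Rpl8, which encodes a protein close to the peptidyl transferase centre, was at 780.1 and 1468 CPM per kb, a mean of 1124 ± 487. Rplp1, a stalk protein gene at a mean of 1121 ± 794, cannot be ranked apart from Rpl4, Rps4x or Rpl8 within this spread. The libraries differ little on Rpl4, but in KO2 alone Rplp1 stood above it. The order of the 77 levels was much the same in both libraries, at a Spearman correlation of 0.855 over genes that share each library's depth and their own length. It depended more on the length used. Levels by merged exonic length and by the length of the shortest consensus (CCDS) transcript had a Spearman correlation of 0.535.

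**Figure D1:**
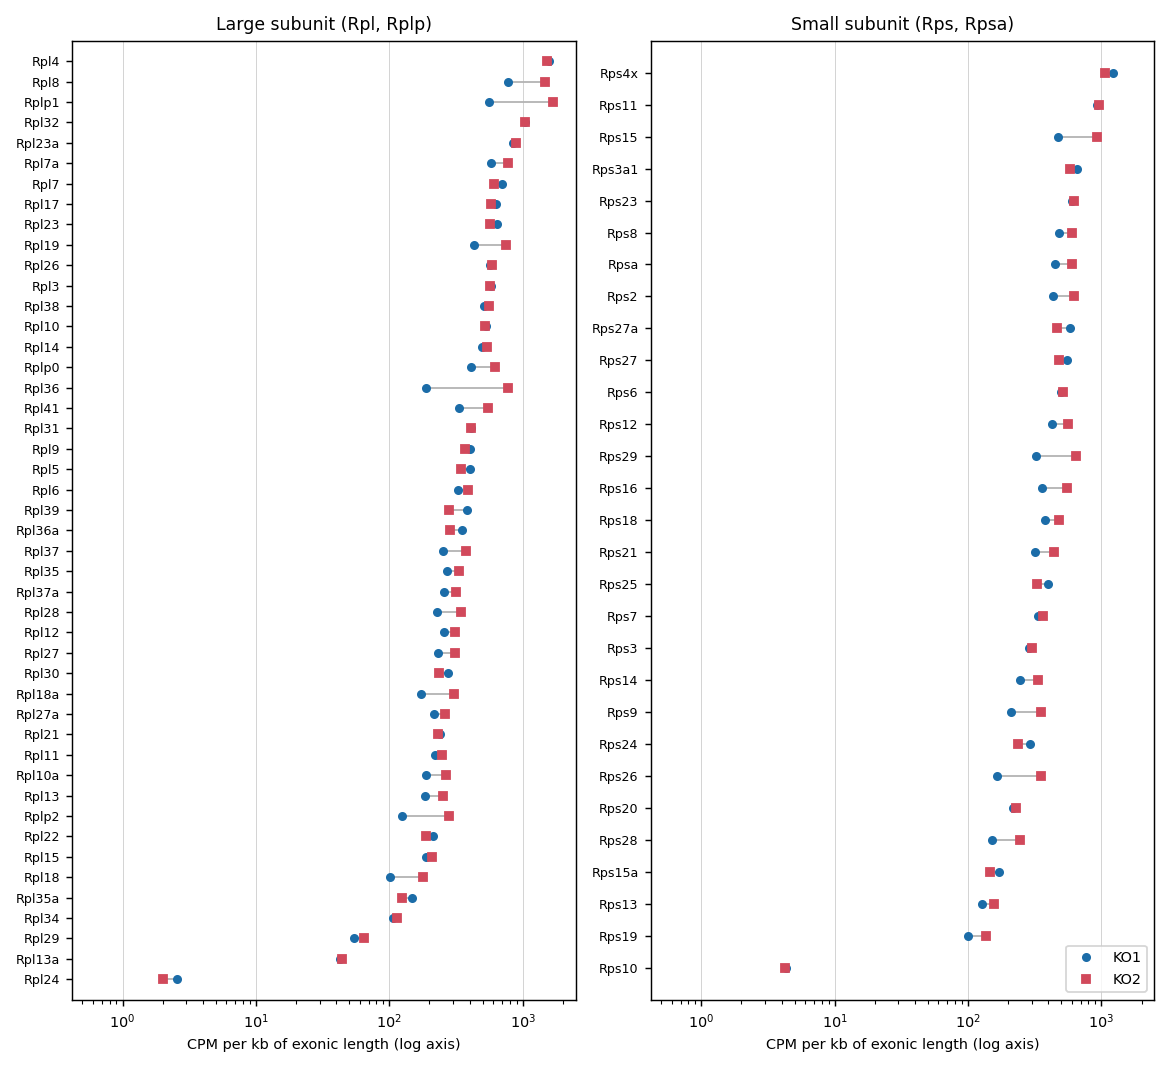
Level of 75 of the 77 canonical genes in CPM per kb of exonic length on a log axis, large subunit on the left and small subunit on the right. Circles are KO1 and squares KO2, and a grey line joins the libraries. Most genes lie between 100 and 1000, and Rpl24 and Rps10 lie far below the others.

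The lowest levels stood well under the rest. Rpl24, a large-subunit protein gene at the joint between the subunits, had 150 and 113 counts in KO1 and KO2, a mean of 2.29 ± 0.393 CPM per kb (SD, n = 2). Rps10, a small-subunit protein gene near the mRNA entry, had 570 and 532 counts, or 4.34 and 4.21 CPM per kb. Rpl13a, a large-subunit protein gene, followed at 42.4 and 44.0 CPM per kb, from 5094 and 5080 counts. These 3 were low in both libraries. Without them the SD of log2 CPM per kb was 0.872, a setting chosen after seeing the data. Leaving out values so far below the rest lowers an SD in any case.

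The same 3 genes, and no other canonical gene, had over 20% of their exonic bases under another annotated gene on the same strand. For Rpl24 (chr16:55966275-55971435) it was 47.0%, with Gm28037. For Rps10 (chr17:27630418-27636669) it was 20.6%, with the readthrough gene RPS10-NUDT3, and for Rpl13a (chr7:45125558-45128761) 35.4%, with Gm45713. Gm28037, RPS10-NUDT3 and Gm45713 each had 0 counts in both libraries. The sources used here do not say how reads under 2 genes were counted. The part of the overlap in these low levels was not tested.

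Most members share sequence with other genes. Of the 77 canonical genes, 76 had at least 1 run of 50 bases in common with an annotated transcript of another gene, and in 47 fewer than 50% of such runs were their own. By rank over the 77 genes levels showed little relation to this share, though medians of genes binned by it fell as it rose. The 24 genes with under 25% of runs of their own had a median of 455 CPM per kb, the 32 genes from 25% to 60% one of 361, and the 21 genes at 60% and over one of 315. The Spearman correlation over 77 genes was 0.0082, and the Pearson correlation with log2 CPM per kb was 0.17. Rps27, a zinc finger protein of the small subunit, had 1.35% of runs of its own and still 32778 and 27226 counts, while Rps27rt, its retrocopy, had 281 and 220.

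**Figure D2:**
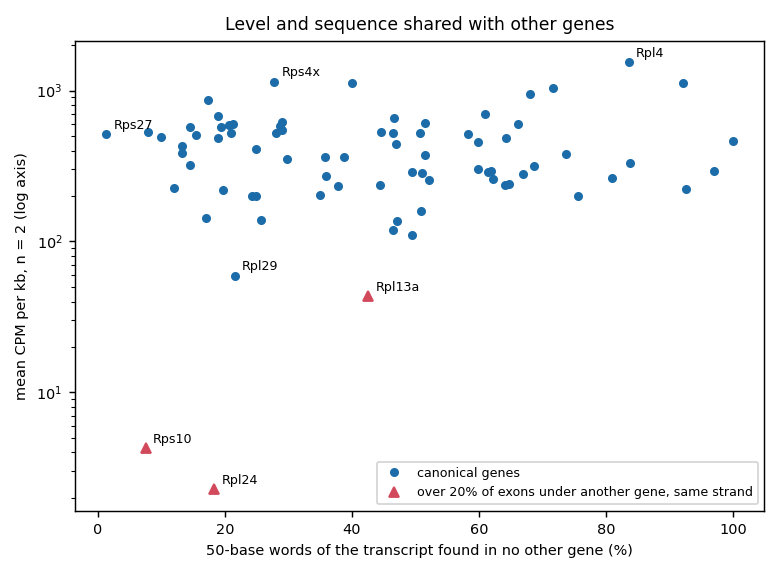
Mean CPM per kb of each canonical gene (n = 2, log axis) against the share of 50-base words of its transcript that occur in no other annotated gene. Triangles are the 3 genes with over 20% of exonic bases under another gene on the same strand, which are the lowest of the 77, and the circles spread over the whole width at like levels.

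Between the libraries, more canonical genes were higher in KO2 than in KO1. The log2 ratio of KO2 over KO1 had a median of 0.15 over the 77 genes, beside 0.0096 over the 15619 genes whose counts sum to 50 or more. It was above 0 for 54 canonical genes and below 0 for 23, where 51.0% of all tested genes were above 0. The 95% counting interval of the ratio lay wholly above 0 for 52 canonical genes, wholly below for 20, and included 0 for 5. Over all tested genes it lay wholly above 0 for 34.3% and wholly below for 31.2%, and most of these have fewer counts than the median canonical gene and so wider intervals. The median was 0.14 in the large and 0.30 in the small subunit. With the 3 GC corrections described below it was 0.03 to 0.09 in the large and 0.07 to 0.14 in the small subunit.

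A gene was counted as past 2-fold when its whole 95% counting interval lay beyond 2-fold. By that rule 4 of the 89 members with enough counts were higher in KO2 and 0 lower, where 0.98% of all genes were higher and 0.0768% lower (1.06% in either direction). No test between groups stands behind these counts, which describe 2 libraries. The 4 members were Rpl36, Rplp1, Rplp2 and Rps26. With a bound of 1.5-fold, 16 members were higher and 0 lower, beside 6.40% and 0.205% of all genes.

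The coding sequences of the canonical genes at both ends of the ratio, with G and C in capitals, show how they differ in base composition. Rpl36 and Rps26 were past 2-fold, and Rpl39 had the lowest canonical ratio. They come from GENCODE M21 transcripts (GRCm38), without the stop codon. They are 315, 345 and 153 bases long, with a GC content of 61.6%, 55.9% and 45.1%, and bases 1 to 300 are shown of the first 2.
Rpl36: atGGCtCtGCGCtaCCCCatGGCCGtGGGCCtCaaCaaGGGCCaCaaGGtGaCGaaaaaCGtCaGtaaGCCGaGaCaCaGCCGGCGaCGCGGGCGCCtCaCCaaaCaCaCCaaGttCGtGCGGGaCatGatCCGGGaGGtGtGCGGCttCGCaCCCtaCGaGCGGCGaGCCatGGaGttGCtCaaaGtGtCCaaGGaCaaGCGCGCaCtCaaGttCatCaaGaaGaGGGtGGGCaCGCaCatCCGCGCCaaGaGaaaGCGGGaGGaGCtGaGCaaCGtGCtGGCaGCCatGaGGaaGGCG
Rps26: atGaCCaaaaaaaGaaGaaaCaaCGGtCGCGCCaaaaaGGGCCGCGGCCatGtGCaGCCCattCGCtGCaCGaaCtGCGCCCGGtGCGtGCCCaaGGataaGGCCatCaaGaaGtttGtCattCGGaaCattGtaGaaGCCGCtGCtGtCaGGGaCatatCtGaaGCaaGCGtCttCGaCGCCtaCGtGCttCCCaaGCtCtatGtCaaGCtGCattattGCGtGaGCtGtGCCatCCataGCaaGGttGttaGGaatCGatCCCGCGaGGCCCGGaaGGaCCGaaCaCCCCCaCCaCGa
Rpl39: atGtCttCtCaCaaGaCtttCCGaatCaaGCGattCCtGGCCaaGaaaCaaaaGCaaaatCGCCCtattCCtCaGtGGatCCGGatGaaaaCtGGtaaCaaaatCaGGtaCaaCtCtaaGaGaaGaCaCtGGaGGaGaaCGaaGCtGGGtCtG

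Rpl36, a large-subunit protein gene (chr17:56613416-56614243, + strand), went from 4118 counts in KO1 to 16187 in KO2, the highest ratio among the 89 members. Its log2 ratio was 2.03 (95% counting interval 1.98 to 2.08). Rplp1 (chr9:61913284-61914542, - strand) had 15858 and 45847 counts, a log2 ratio of 1.59 (1.56 to 1.61). Rplp2 (chr7:141447370-141451585, + strand), its partner in the stalk, had 14703 and 31970 counts, a log2 ratio of 1.18 (1.15 to 1.21). Rps26 (chr10:128624534-128626747, - strand), whose protein lies at the mRNA exit, had 14388 and 29681 counts, a log2 ratio of 1.10 (1.07 to 1.13). Each was the higher in KO2 by more than counting error, and with 1 library on each side the spread behind these ratios is unknown.

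At the other end, Rpl22l1, a paralog of Rpl22, had 11436 and 7766 counts, a log2 ratio of -0.50 (-0.54 to -0.46). Rpl36a-ps1, a retrocopy, had 62 and 43 counts, and its interval of -1.07 to 0.11 includes 0. Rpl39 (chrX:37082520-37085402, - strand), a very short protein of the exit tunnel, had 31361 and 21927 counts, a log2 ratio of -0.46 (-0.48 to -0.44). None of these reached 1.5-fold by its interval.

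**Figure D3:**
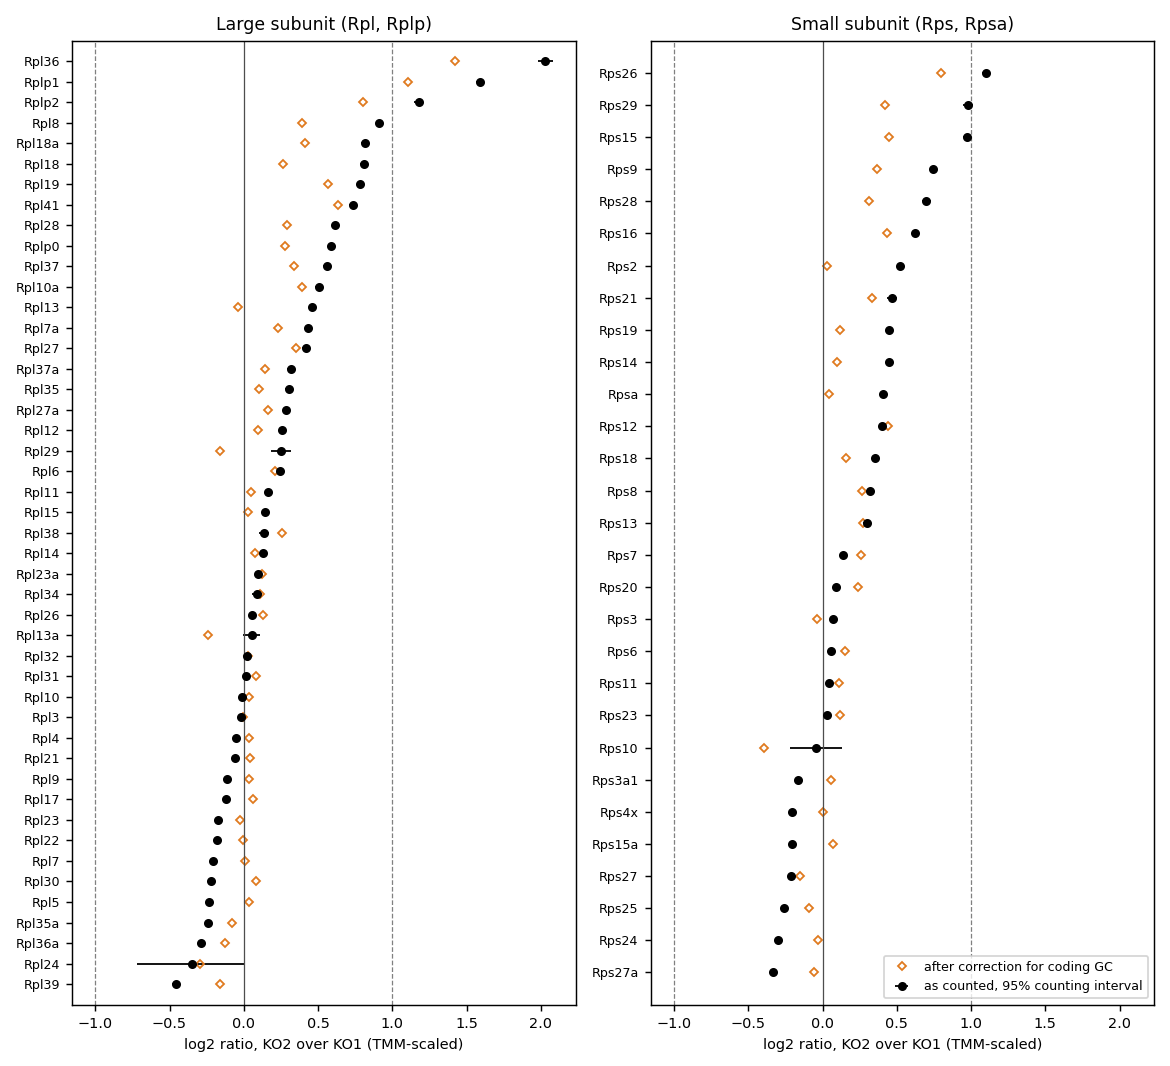
Log2 ratio of KO2 over KO1 for 75 of the 77 canonical genes, TMM-scaled, with the 95% counting interval as a bar (filled circles) and after correction for GC content of the coding sequence (open diamonds). Dashed lines mark 2-fold. Rpl36, Rplp1, Rplp2 and Rps26 lie past the upper line as counted, and the diamonds of Rpl36 and Rplp1 still do.

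The ratio followed the GC content of the coding sequence gene by gene. Over the 77 canonical genes the Spearman correlation was 0.870 and the Pearson correlation 0.838. These genes share both libraries and are not replicates. Among 19 genes with a coding GC content under 50%, 3 had a ratio above 0, and the median log2 ratio was -0.20. Among 37 genes from 50% to 55%, 31 were above 0 with a median of 0.16, and among 21 genes at 55% and over, 20 were above 0 with a median of 0.70. The exception among these 21 was Rps10, at a log2 ratio of -0.04.

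Over all genes the ratio followed coding GC content too, at a Spearman correlation of 0.782 for the 13413 tested genes with a coding sequence. Coding GC content itself was not unusual in the family, at a median of 52.7% beside 53.2%. GC content of the shortest consensus (CCDS) transcript, UTRs included, gave 0.681 over the 77 genes, and that of the longest annotated transcript 0.507. Over 15603 tested genes these 2 measures gave 0.818 and 0.811, above the 0.782 of coding GC content. Coding GC content thus had the closest relation in the family but not over all genes. The coding measure was added after the other 2 had been seen. What made GC content and library ratio move together was not tested.

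**Figure D4:**
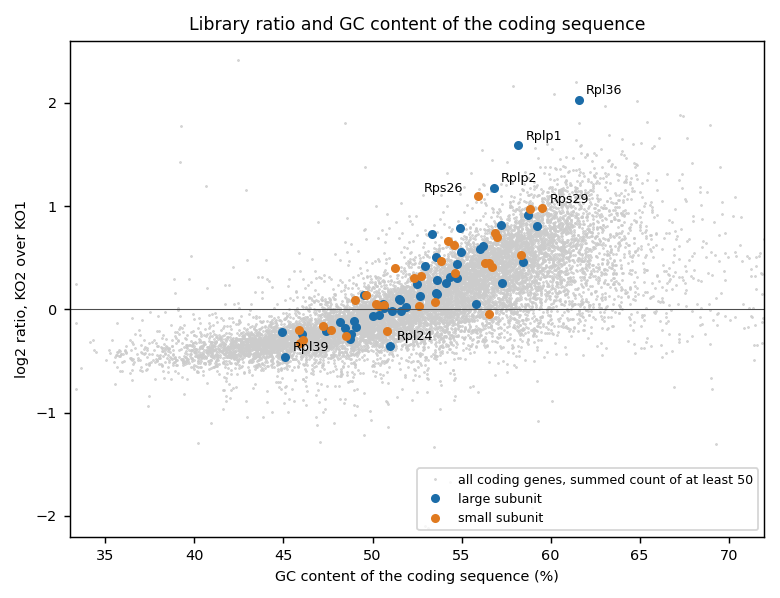
Log2 ratio of KO2 over KO1 against GC content of the coding sequence for the 77 canonical genes (blue, large subunit; orange, small subunit) and for all coding genes whose counts sum to 50 or more (grey dots, 43 of them outside the plotted range). Both climb from left to right, and Rpl36, Rplp1, Rplp2 and Rps26 lie above the grey cloud's middle.

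With the ratio corrected for this trend, the family's spread narrowed. The SD of the log2 ratio over the 77 genes went from 0.459 to 0.287 with coding GC content, where all tested genes had 0.445 and those with a coding sequence 0.292 after correction. The canonical median was 0.11, beside 0.00011 over all genes with a coding sequence, with 60 of 77 above 0. By the longest transcript the canonical SD was 0.412, beside 0.283 over all genes. The canonical median was then 0.08, beside -0.008, with 47 of 77 above 0. By the shortest CCDS transcript the canonical SD was 0.346 and the median 0.05. Above 0 were then 26 of 46 large-subunit and 18 of 31 small-subunit genes. The share of all genes above 0 after each correction is not given here, nor their SD and median by the shortest CCDS transcript. How far these counts above 0 exceed those of all genes is thus not shown. With coding GC content Rpl36 at 1.42 and Rplp1 at 1.11 stayed past 2-fold, and Rplp2 at 0.81 and Rps26 at 0.80 did not. Of all genes with a coding sequence 0.112% were then higher and 0.0671% lower (0.179% in either direction). The choice of sequence mattered for which genes passed. By the longest transcript Rpl36 and Rps26 passed, at 1.19 and 1.17 (0.167% of genes higher, 0.103% lower, 0.269% in all), and by the shortest CCDS transcript Rpl36, Rps26 and Rplp1 (0.147%, 0.135% and 0.282%). Of the 4, Rpl36 alone passed in all 3.

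Among the role groups, the P stalk had the highest median ratio. The stalk recruits elongation factors to the large subunit, and is made of Rplp0 with pairs of Rplp1 and Rplp2, on a base that includes Rpl12. All 4 genes had a ratio above 0, with a median log2 ratio of 0.88, and 2 were past 2-fold. Rplp0 went from 38742 to 55915 counts, a log2 ratio of 0.59, and Rpl12 from 52831 to 60637, a log2 ratio of 0.26. Their coding GC content ran in the same order, from 58.2% in Rplp1 and 56.8% in Rplp2 to 56.0% in Rplp0 and 54.1% in Rpl12. All 4 ratios stayed above 0 with each of the 3 GC corrections, with medians from 0.54 to 0.60.

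The genes listed for the mRNA entry and exit of the small subunit were Rps2, Rps3, Rps26, Rps28 and Rpsa. They had 5 of 5 ratios above 0, with a median log2 ratio of 0.52 and 1, Rps26, past 2-fold. Rps10, described above as near the mRNA entry, was not in this list and went the other way, at -0.04 (-0.22 to 0.13). With GC correction Rps10 was at -0.40 by the coding sequence, -0.85 by the longest transcript and -0.51 by the shortest CCDS transcript. Rps28, at the exit, went from 14825 to 23147 counts (0.70), and Rps2, at the entry, from 44875 to 61929 (0.52). Rpsa, the laminin receptor gene, had 81484 and 103780 counts (0.41), and Rps3, whose protein lies at the entry, 73274 and 74064 (0.07). With correction for coding GC content the group's median fell to 0.04. Rps26 was then at 0.80 and Rps28 at 0.31, whereas Rps2 at 0.03, Rpsa at 0.04 and Rps3 at -0.04 lay close to 0, and by the shortest CCDS transcript Rpsa was at -0.05.

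The exit tunnel genes Rpl4, Rpl17 and Rpl39 had 0 of 3 ratios above 0, with a median log2 ratio of -0.12. Rpl17 had 47355 and 41867 counts. GC correction turned the direction of the group, whose median was 0.02 to 0.03 over the 3 corrections, with Rpl4 at 0.02 to 0.06 and Rpl17 at 0.03 to 0.06. Rpl39 alone of the 3 stayed below 0 with each correction, at -0.41 to -0.16. The 5S particle genes split, Rpl5 at -0.24 from 90204 and 73604 counts and Rpl11 at 0.16 from 33885 and 36444. With GC correction Rpl5 turned to between 0.03 and 0.07, and Rpl11 lay between -0.05 and 0.05. Their proteins bind 5S ribosomal RNA and, when free of the ribosome, the p53 regulator Mdm2. Rps6, the small-subunit protein phosphorylated downstream of mTOR, was at 495.8 and 515 CPM per kb with a log2 ratio of 0.06. With GC correction the ratio of Rps6 was -0.64 by the longest transcript, but 0.15 by the coding sequence and 0.08 by the shortest CCDS transcript. Rps27a, made as a fusion with ubiquitin, had 65571 and 50154 counts, a log2 ratio of -0.33, and of -0.23 to -0.06 with the 3 GC corrections.

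Of 18 genes known from Diamond-Blackfan anaemia, an inherited failure of red cell production, 13 had a ratio above 0, and 1, Rps26, was past 2-fold. Their median log2 ratio of 0.14 was close to the 0.15 of all canonical genes, and with GC correction it lay between -0.05 and 0.09. Rpl26 was at a mean of 582 CPM per kb, and is named from its value. Rps10 was the lowest.

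The 15 other members were low on the whole, with a few exceptions. Rps27l, a p53-responsive paralog of Rps27, was highest at 307 CPM per kb in KO1 and 268 in KO2. Rps27 itself was at 553 and 478. Rpl39l, a paralog best known from male germ cells, followed at 167 and 140 CPM per kb, beside 385 and 279.9 for Rpl39. Rpl10l, a retrogene that replaces X-linked Rpl10 in male meiosis, was at 91.1 and 121 CPM per kb, beside 529.5 and 525 for Rpl10. Both germ cell paralogs were thus read in these cells at levels above the median detected gene, with 92.4% of Rpl10l's and 100% of Rpl39l's 50-base runs found in no other gene.

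Rpl7l1, a paralog with a role in ribosome assembly, was at 102 and 104 CPM per kb, and Rpl22l1 at 101 and 71.5, beside 212 and 188 for Rpl22. Rpl3l, the striated muscle form of Rpl3, was at 0.750 and 0.980 CPM per kb, from 70 and 88 counts, beside 578 and 569 for Rpl3. Rps19bp1 was at 43.5 and 51.9 CPM per kb. Paralogs set beside their canonical partner here were thus below it in both libraries, least so for Rps27l and most so for Rpl3l.

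**Figure D5:**
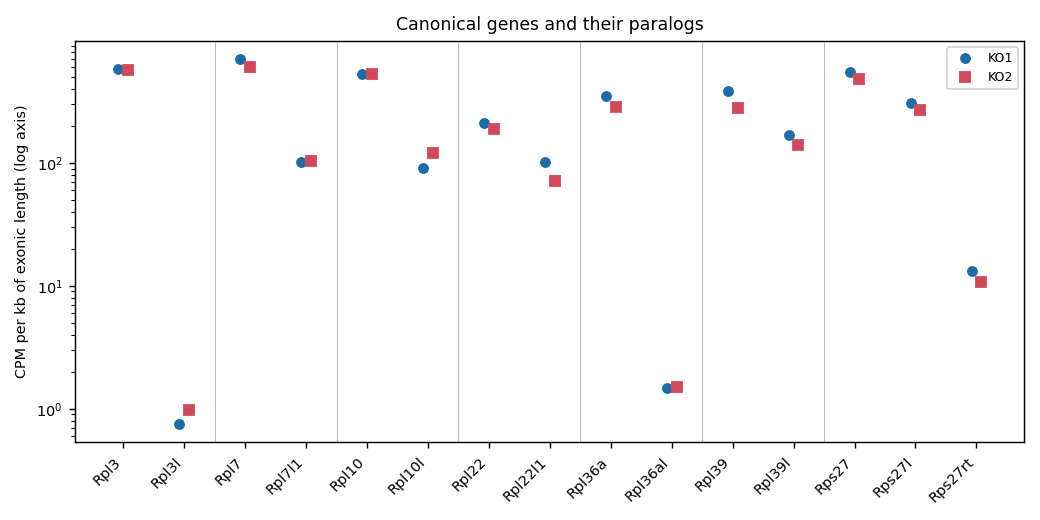
CPM per kb of exonic length on a log axis for canonical genes and their paralogs, each family between grey lines, with circles for KO1 and squares for KO2. Each paralog lies below its canonical partner in both libraries, least so for Rps27l and most so for Rpl3l.

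Rpl36a and Rpl36al encode near-identical proteins from an X-linked gene (chrX:134585654-134588062, + strand) and a gene on chromosome 12 (chr12:69182731-69184083, - strand). Rpl36a was read 32975 times in KO1 and 25986 times in KO2, and Rpl36al 114 and 111 times, or a mean of 1.49 ± 0.0131 CPM per kb (SD, n = 2). Rpl36al has 24.5% of its exonic bases under another gene on the same strand, and 59.5% of its transcript's 50-base runs occur in Gm49383, which had 2 and 2 counts. The part of this overlap in its low level was not tested.

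The retrocopies annotated as protein-coding held few counts. Rpl9-ps6 had 340 and 330, Rpl10-ps3 173 and 191, Rpl9-ps1 20 and 14, and Rps12-ps3 7 and 18. Rpl36-ps4 had 0 in both libraries. All but Rpl9-ps1 and Rpl36-ps4 share most of their sequence with a canonical gene, so their counts are uncertain.

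Outside the rule, 290 annotated pseudogenes carry a ribosomal protein symbol, and 197 had a count in either library. Together they held 59659 counts in KO1 and 69311 in KO2, or 1.83% and 1.97% of the members' counts. The highest, chosen by their counts, were Rps3a3 with 22785 and 20103 counts, Rps4l with 5086 and 13628, and Rpl3-ps1 with 6206 and 10202.

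For 71 pseudogenes with at least 50 counts the symbol names 1 of 42 parent genes. Pseudogene and parent ratios had the same sign in 50 of 71, with a Spearman correlation of 0.576, as a description of genes that share sequence and libraries. Rpl36-ps12 had 21 and 75 counts, a log2 ratio of 1.87 beside 2.03 for Rpl36, and Rps26-ps1 66 and 126, a log2 ratio of 0.98 beside 1.10 for Rps26. Rps4l went the other way from Rps4x, with log2 ratios of 1.48 and -0.20. These pseudogenes were chosen with their values known.

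Promoter windows from RefSeq (GRCm38.p6), from 250 bases before to 50 after the start, were matched for 57 of the 77 canonical genes and 16529 protein-coding genes in all. The stretch from 60 bases before to 10 after the start is shown, since TOP mRNAs begin with a pyrimidine run, and capitals mark the longest such run in it. The RefSeq start is base 61, so the runs of Rpl4 and Rpl19 lie before that start and the run of Rps27 alone spans it. The GENCODE M21 start of Rpl4 lies 12 bases earlier, inside its run. The genes shown are the 3 highest in CPM per kb whose run of at least 8 lies in this stretch and at most 30 of whose bases are annotated as exon. They are Rpl4 (chr9:64173327-64173396, + strand), Rpl19 (chr11:98026864-98026933, + strand) and Rps27 (chr3:90213639-90213708, - strand).
Rpl4: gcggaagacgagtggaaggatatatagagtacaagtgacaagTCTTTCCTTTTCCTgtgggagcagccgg
Rpl19: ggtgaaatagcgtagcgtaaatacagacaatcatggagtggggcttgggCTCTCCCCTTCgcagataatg
Rps27: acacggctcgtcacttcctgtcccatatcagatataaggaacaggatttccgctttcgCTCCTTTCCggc

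A run of at least 8 C or T bases touching the 20 bases on either side of the start was found in 50.9% of canonical windows and 20.2% of all. A C stood at the start itself in 33.3% and 14.1%. Motifs were searched on both strands, and none contains another. CTTTCC was in 50.9% of canonical windows and 26.1% of all. CCGGAAG, the core bound by ETS factors such as GABP, was in 38.6% and 12.4%, and AAGATGGC, of the YY1 type, in 7.02% and 3.30%. GGGCGG was in 59.6% and 48.3%, and TATAAA in 8.77% and 12.9%. These are letters in windows, not binding sites, and their relation to the counts was not tested.

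The canonical genes are spread over 19 chromosomes, with 14 on chromosome 7, 7 on chromosome 11 and 4 on X. Of the 77, 30 hold annotated small nucleolar RNA (snoRNA) genes on their own strand, 58 in all, with 5 in Rpl4. Hosts had a median of 415 CPM per kb and a median log2 ratio of 0.09, and the 47 other genes 362 and 0.16.

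Other translation genes served as a comparison, from lists by function. Of 9 genes of elongation and termination 0 were past 2-fold, with 5 ratios above 0 and a median log2 ratio of 0.02. Eef1a1, which delivers aminoacyl-tRNA, was the highest at 3772 and 3816 CPM per kb, above every ribosomal protein gene, and Eef2, which moves the ribosome along, was at 451 and 782. Gspt1 and Eef1d were the lowest, at means of 85.0 and 59.8.

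Of 20 other TOP mRNAs 0 were past 2-fold and 9 above 0, with a median log2 ratio of -0.01. Of 36 ribosome biogenesis genes 0 were past 2-fold, 18 above and 18 below 0. Npm1 and Ncl, nucleolar proteins, led this list at means of 1619 and 384 CPM per kb, and Nle1 and Riok1 came last at 12.9 and 6.80. Of 12 RNA polymerase I factors 1, Taf1c, was past 2-fold, higher in KO2 with 736 and 1550 counts and a log2 ratio of 1.13, where 0.98% of all genes were past that fold. With GC correction by the longest transcript it was at 0.29, and 0 of the 12 were higher past 2-fold with any of the 3 corrections. Rrn3 and Znrd1 were the highest of that list, Rrn3 at 101 and 88.9 CPM per kb and Znrd1 at a mean of 79.4, and Ttf1 and Taf1c the lowest, at 9.17 and 5.92.

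Ribosomal protein genes whose symbols lie outside the rule include Rack1 and Fau. Rack1, a scaffold on the small subunit, had 81875 and 102992 counts, a log2 ratio of 0.39. Fau, whose product is cleaved to a small-subunit protein, had 9055 and 17382, a log2 ratio of 1.00 (0.96 to 1.03), and of 0.20 to 0.47 with the 3 GC corrections.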

How the data were processed

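Polyadenylated RNA was measured in 2 Ago1 knockout libraries. The authors deposited raw counts per gene as whole numbers. Reads were placed on GRCm38, per the submitters' processing notes. The protocol was reverse-stranded, per the labels. Aligner, counter, strand setting and handling of shared reads: not given in the sources used here.

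Scaling used edgeR 4.0.16 (R 4.3.3) TMM factors, 0.996 and 1.00. Symbols, exonic lengths, transcripts and overlaps came from GENCODE M21 and bedtools 2.31.1. Ratios used a prior count of 0.5, a summed count of at least 50 and exact conditional binomial 95% intervals. Intervals and floors cover counting error only. GC correction was a loess of the log2 ratio with a span of 0.3. Other steps used python 3.11.15, scipy 1.17.1 and pandas 2.3.3.

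Some genes are not reported here. With 1 group no test between groups and no p-value could be had. The members and lists were chosen with earlier results of these data known, including the GC trend over all genes. Named genes were Ago1, the 3 highest and 3 lowest canonical genes per kb, the 3 highest and 3 lowest members by ratio, members past 2-fold, members that are not canonical, the small role groups, and the 2 highest and 2 lowest of each other translation list. Alternatives were other scaling (library size, DESeq2 1.42.0 size factors), prior counts, filters, folds, lengths, GC corrections and each library alone.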

Additional observations from a re-analysis of the deposited data

How the results depend on the processing

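No paired analysis was possible because both libraries belong to the same group. The spread of log2 CPM per kb, 1.44, was 1.59 without genes with 5 or more annotated pseudogenes. Chosen after seeing the data, it was 1.36 by the shortest CCDS length and 0.872 without the 3 overlapped genes. Each library alone gave 1.42 to 1.48. The 4 members past 2-fold were 2 with GC correction by the longest transcript, 2 by the coding sequence and 3 by the shortest CCDS transcript, the last 2 corrections chosen after seeing the data. With a bound of 1.5-fold there were 16, and with 3-fold 1. Each library alone gave a share of counts from 5.70% to 6.48% and 88 to 89 detected members. A library is always within 1 SD of a mean of 2, so these say nothing of stability. Other alternatives moved the share to between 6.21% and 6.26%, detected members to between 81 and 91, and the median log2 ratio of members, 0.13, to between 0.04 and 0.15. DESeq2 size factors were 1 and 1. GC correction moved 25 to 27 of 34 named ratios beyond their counting interval, and 11 by the longest transcript, 10 by the coding sequence and 9 by the shortest CCDS transcript changed sign. Rpl13a, Rpl17, Rpl4, Rpl5, Rps19bp1 and Rps27l did so in all 3, and none of the 4 past 2-fold did in any. A planned count of 50-base runs over the genome was not run, since no genome sequence was used here.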
